A study of Rattus norvegicus with 8 samples.

Results

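The 10 genes described here are markers of astrocytes and of gliosis, chosen by name with earlier results of these data known, out of 22601 genes listed in each library. They were *Gfap*, *Vim*, *S100b*, *Aqp4*, *Kcnj10*, *Gja1*, *Serpina3n*, *Lcn2*, *Timp1* and *Osmr*, and all 10 were found and passed the filter on low values. Hippocampal RNA of wild-type Wistar rats of 180 to 220 g was sequenced with 1 library per rat, giving 3 Con., 3 PTZ and 2 Q808 libraries. PTZ (pentylenetetrazole) blocks GABA-A receptors and kindles rats when low doses are repeated, and Q808 is a candidate anticonvulsant. PTZ and Q808 rats were given 14 intraperitoneal injections of 35 mg/kg PTZ at intervals of 48 h over 28 days, and 60 mg/kg on the last day to complete kindling. The Q808 rats then took 30 mg/kg Q808 by gavage on each of 28 days, while PTZ rats took its solvent and Con. rats took saline and the solvent. PTZ and Q808 rats had a further low dose of PTZ before decapitation, so the comparison of PTZ with Con. holds kindling and a recent injection together. The age and sex of the rats were not given. Values are in FPKM (fragments scaled by transcript length and by the number of mapped fragments), which allows levels to be compared between genes per length.

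Astrocytes take up potassium and glutamate from around synapses, move water at end-feet on blood vessels and share ions through gap junctions. After seizures or injury they become reactive, a state called gliosis, in which they raise intermediate filament proteins and secrete protease inhibitors and acute-phase proteins. Cytokines of the interleukin-6 family, among them oncostatin M and leukemia inhibitory factor, drive much of this response through receptors that share the subunit gp130, the kinase JAK and the transcription factor STAT3.

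In PTZ against Con., *Timp1* and *Osmr* were the 2 of the 10 genes that rose past the threshold, and *Gfap*, *Vim* and the resting astrocyte genes did not. *Timp1* encodes a secreted inhibitor of matrix metalloproteinases and *Osmr* encodes the receptor chain that binds oncostatin M together with gp130. In Q808 against PTZ none of the 10 passed, and *Timp1* lay lower in both Q808 libraries than in any PTZ library. In Q808 against Con. *Vim*, *Timp1* and *Osmr* were higher. A gene was called here at an unadjusted p under 0.05 and more than 1.5-fold change in limma, and no adjusted p of a member was under 0.05 in any of the 3 comparisons.

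In each group 1 library stood apart. The mean log2(FPKM + 0.1) of 6 striatum markers reached 6.97 for Con.-3, 5.53 for PTZ-3 and 5.68 for Q808-1. The remaining 5 libraries had means from 1.13 to 2.16. Results are given with all 8 libraries and without these 3. In the fit without them Q808-2 was the lone Q808 library, which was assumed to vary like the libraries of the other groups. Choroid plexus markers also varied, with summed FPKM of 91.8 to 2534 in Con., 277 to 492 in PTZ and 163 to 6437 in Q808, where 6 of 7 markers were above 0 in at least 1 library and *Otx2* was at 0 in all. Of 6 dentate granule cell markers, which mark the hippocampus, *C1ql2* lay between 3.23 and 5.09 FPKM and *Prox1* between 2.84 and 4.04 FPKM in the 3 libraries with high striatum markers, far below the other 5, where *C1ql2* lay between 50.6 and 96.7 and *Prox1* between 12.2 and 16.6. *Pdzd2* went the other way, at 13.2, 5.78 and 7.29 FPKM in Con.-3, PTZ-3 and Q808-1 and between 3.53 and 5.26 in the other 5. *Calb1* was highest in PTZ-3 (112 FPKM) and Con.-3 (87.7) and lowest in Q808-1 (26.0). *Dsp* was at most 0.957 FPKM, and *Tdo2* was listed at 0 in 5 of the 8 libraries. In bulk tissue, fewer cells of a type and less RNA per cell cannot be told apart.

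**Figure D1:**
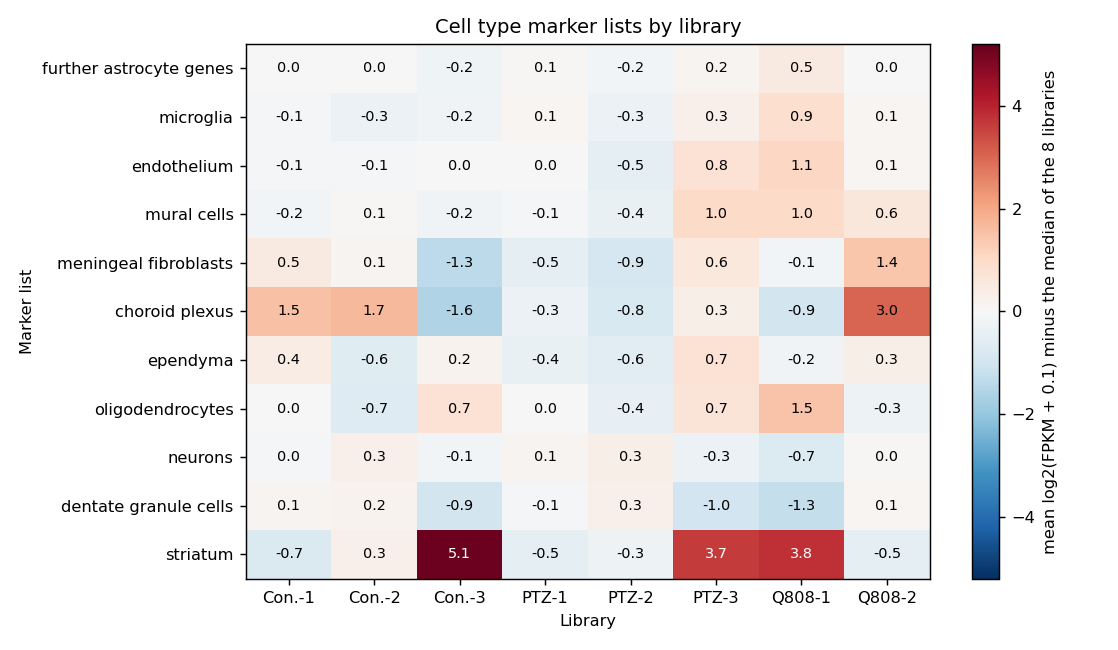
Mean log2(FPKM + 0.1) of each cell type marker list (rows) in each of the 8 libraries (columns), drawn as the difference from the median of the 8 libraries, red for higher and blue for lower. Striatum markers stood high in Con.-3, PTZ-3 and Q808-1, choroid plexus markers stood highest in Q808-2, and 20 further astrocyte genes varied far less.

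The promoters of *Osmr* and *Timp1*, the 2 genes that rose in PTZ, and that of *Serpina3n*, the 1 member with a STAT word, are shown as the 250 bases before the RefSeq gene start in GRCr8. *Osmr* lies on the minus strand at chr2:57688562-57688811, *Timp1* on the minus strand at chrX:3771123-3771372 and *Serpina3n* on the plus strand at chr6:129088142-129088391. Capitals mark the words searched, TTCNNNGAA for STAT factors and TGANTCA for AP-1, each of which reads the same on both strands and neither of which overlaps the other here.
Osmr: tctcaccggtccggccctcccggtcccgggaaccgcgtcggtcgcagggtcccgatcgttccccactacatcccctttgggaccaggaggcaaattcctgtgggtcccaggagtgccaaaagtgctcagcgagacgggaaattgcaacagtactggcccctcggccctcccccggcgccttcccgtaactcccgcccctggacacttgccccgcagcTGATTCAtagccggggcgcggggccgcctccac
Timp1: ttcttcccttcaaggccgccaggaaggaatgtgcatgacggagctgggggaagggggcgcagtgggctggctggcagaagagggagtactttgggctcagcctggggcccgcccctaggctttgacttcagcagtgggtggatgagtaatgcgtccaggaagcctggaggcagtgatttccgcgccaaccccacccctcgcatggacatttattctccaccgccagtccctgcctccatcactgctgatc
Serpina3n: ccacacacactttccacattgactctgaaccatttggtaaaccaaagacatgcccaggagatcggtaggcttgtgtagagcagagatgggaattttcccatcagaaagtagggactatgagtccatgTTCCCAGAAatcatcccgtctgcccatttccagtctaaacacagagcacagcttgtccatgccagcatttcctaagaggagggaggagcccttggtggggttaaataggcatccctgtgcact
All 10 members were matched to a RefSeq promoter window, which runs from 250 bases before to 50 bases after the gene start. The STAT word stood in 1 of the 10, *Serpina3n*, 123 bases before the start, against 8.87% of all 33469 promoters. The AP-1 word stood in 2 of the 10, 33 bases before the start of *Osmr* and 58 bases before that of *Gja1*, against 7.33% of all promoters. The *Timp1* window held neither word. A match describes letters in a window, not a bound site.

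*Osmr* (GeneID 310132) was low throughout and ordered Con., Q808, PTZ. Its FPKM was 0.353, 0.262 and 0.335 in the Con. libraries, 1.28, 1.79 and 0.911 in the PTZ libraries and 1.11 and 0.630 in the Q808 libraries. Every PTZ and Q808 library lay above every Con. library, while the PTZ and Q808 ranges overlapped. The means were 0.317 ± 0.048 (SD, n = 3), 1.33 ± 0.444 (SD, n = 3) and 0.872 ± 0.341 (SD, n = 2). In PTZ against Con. *Osmr* was 3.33-fold higher on the FPKM + 0.1 scale, a log2 fold change of 1.74 with a standard error of 0.34 (limma, unadjusted p = 0.00143, adjusted p = 0.999, with 0.0714 to 1.00 over the alternatives). Its p ranked 17 among the 15593 genes tested. The two-sided exact permutation test gave p = 0.1, the smallest that 3 against 3 libraries allow. Without the 3 libraries with high striatum markers the change was 3.99-fold (log2 2.00, SE 0.33, limma adjusted p = 0.0714), and between PTZ-3 and Con.-3 alone it was 1.22 on the log2 scale.

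*Timp1* (GeneID 116510) showed the widest range of the 9 members that were above 0 in every library, a ratio of 50.3 between its highest and lowest library. Its FPKM was 2.91, 1.15 and 1.47 in Con., 15.6, 57.9 and 5.70 in PTZ and 3.35 and 5.52 in Q808. The 3 groups did not overlap, in the order Con., Q808, PTZ, but the lowest PTZ value, 5.70 in PTZ-3, was close to the 5.52 of Q808-2. The means were 1.84 ± 0.935 (SD, n = 3), 26.4 ± 27.7 (SD, n = 3) and 4.44 ± 1.53 (SD, n = 2), with PTZ-2 far above the others. The change in PTZ against Con. was 9.65-fold, a log2 fold change of 3.27 with a standard error of 0.79 (limma, unadjusted p = 0.00438, adjusted p = 0.999, with 0.0806 to 1.00 over the alternatives). Without PTZ-2 the log2 value was 2.40 and without PTZ-3 it was 4.06, both called. Without the 3 libraries the change was 15.6-fold (log2 3.96, SE 0.69, limma adjusted p = 0.0806), and between PTZ-3 and Con.-3 alone it was 1.89 on the log2 scale. In the RefSeq table the span of *Timp1* overlaps *Syn1*, a synapsin gene expressed in neurons, and that of *S100b* overlaps *Dip2a*, so fragments of these pairs could be split by the counting.

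Across the 10 members, 2 were called in PTZ against Con., both higher, against 2.53% of all 15593 genes, and the groups did not overlap in 3 of the 10, all higher in PTZ, against 9.15% of all genes. Of all genes, 395 were called, 589 had an unadjusted p under 0.05 and 0 had an adjusted p under 0.05 in limma. With the replicate numbers as a block, 616 of all genes were called and *Timp1* and *Osmr* stayed called. The median log2 fold change of the 10 members was 0.27, beside -0.04 over all genes. Without the 3 libraries the same 2 members were called, against 9.82% of all genes, with a median of 0.15 over the members, 7 of 10 above 0, and of -0.11 over all genes, and no member had an adjusted p under 0.05, against 0.949% of all genes. Microglia markers, 10 of 10 detected, had summed FPKM of 194 to 238 in Con., 199 to 311 in PTZ and 251 to 440.0 in Q808, and 1 of 10 was called higher in PTZ against Con. and 2 of 10 in Q808 against Con. Among endothelial markers 1 of 8 was called higher in PTZ against Con. The part of these cell types in the results was not tested.

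**Figure D2:**
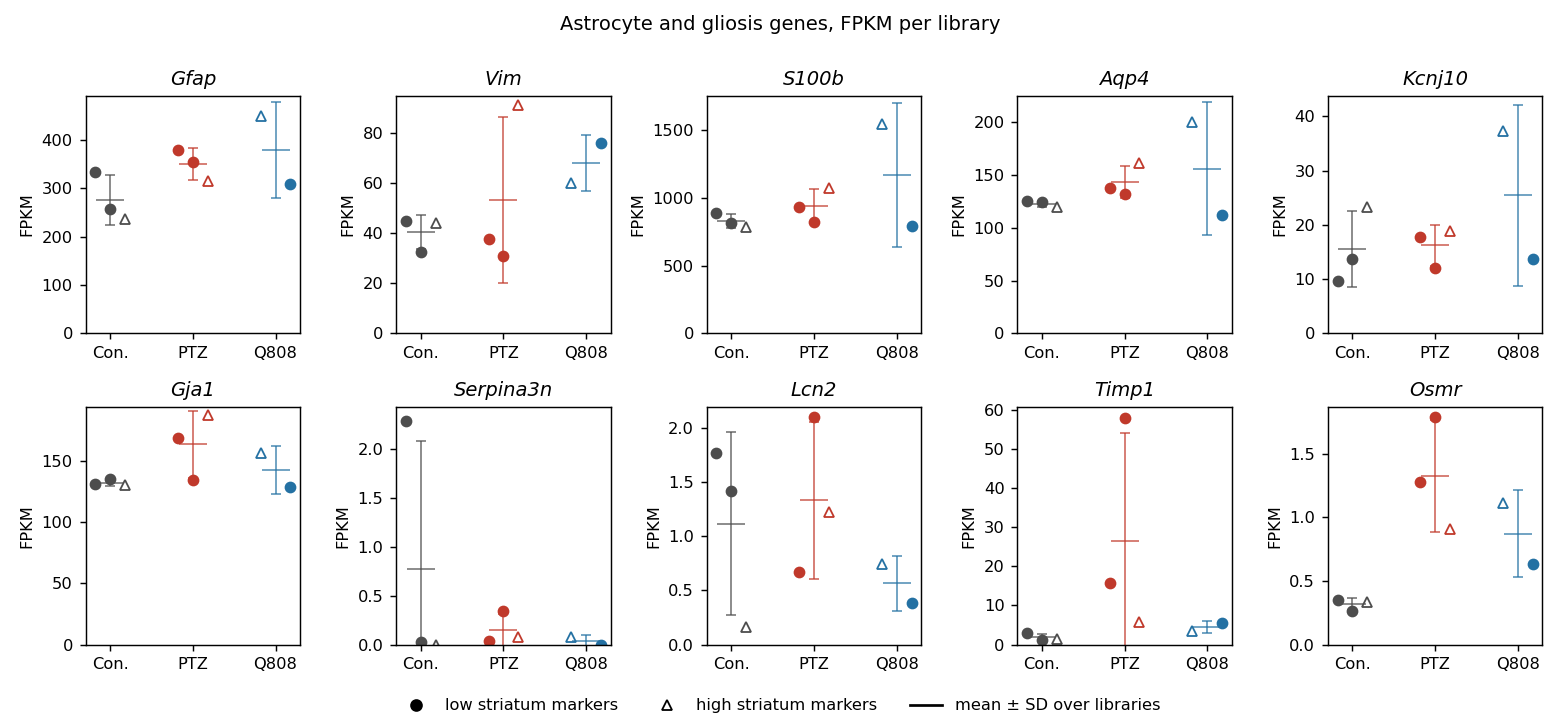
FPKM (linear axes from 0) of the 10 genes in each library, grouped as Con. (grey), PTZ (red) and Q808 (blue), with filled circles for libraries with low and open triangles for libraries with high striatum markers, and bars for the mean ± SD over libraries, cut at 0 where the SD exceeds the mean. *Osmr* and *Timp1* were above the Con. libraries in every PTZ and Q808 library, while the highest *Gfap*, *S100b*, *Aqp4* and *Kcnj10* values all came from Q808-1.

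The intermediate filament genes moved less. *Gfap* (GeneID 24387), the filament protein by which astrocytes are usually stained, had FPKM of 335, 258 and 236 in Con., 380.1, 355 and 315 in PTZ and 450.5 and 309 in Q808. The groups overlapped, since Con.-1 lay above PTZ-3 and Q808-2. Its log2 fold change in PTZ against Con. was 0.35 with a 95% interval of -0.05 to 0.76 (limma, unadjusted p = 0.0784), and in Q808 against PTZ it was 0.10 with an interval of -0.49 to 0.69. *Vim* (GeneID 81818), which encodes vimentin, the filament of immature and reactive astrocytes and also of vessel and meningeal cells, had FPKM of 44.9, 32.4 and 44.0 in Con., 37.6, 30.9 and 91.4 in PTZ and 59.95 and 75.9 in Q808. PTZ-3 was the highest of the 8 libraries and the other PTZ libraries lay within or below the Con. range. The PTZ against Con. value of *Vim* was 0.24 on the log2 scale with all libraries and -0.16 without the 3 libraries, neither past the threshold.

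Of the genes of resting astrocytes, *S100b*, *Aqp4* and *Gja1* were among the abundant transcripts and *Kcnj10* was lower. *S100b* (GeneID 25742), a calcium-binding protein, had FPKM of 890.5, 814 and 786 in Con., 930.0, 825 and 1072 in PTZ and 1548 and 796 in Q808. *Aqp4* (GeneID 25293), the water channel of end-feet, had 125, 124 and 119 in Con., 138, 132 and 161 in PTZ and 201 and 112 in Q808. *Aqp4* was the third member whose PTZ and Con. libraries did not overlap, but by 1.16-fold (log2 0.22, limma unadjusted p = 0.116). *Kcnj10* (GeneID 29718), the inward rectifier channel that clears potassium, had 9.58, 13.8 and 23.3 in Con., 17.8, 11.95 and 18.9 in PTZ and 37.2 and 13.7 in Q808, with wide overlap. *Gja1* (GeneID 24392), connexin 43 of astrocyte gap junctions, had 131, 135 and 129.9 in Con., 169, 134 and 188 in PTZ and 156 and 128 in Q808, and its log2 fold change in PTZ against Con. was 0.29 with an interval of -0.06 to 0.65 (limma, unadjusted p = 0.0905). In *Gfap*, *S100b*, *Aqp4* and *Kcnj10* the value of Q808-1 exceeded every other library, and Q808-2 lay within the range of the Con. libraries in *Gfap*, *S100b* and *Kcnj10* and below it in *Aqp4*. Oligodendrocyte markers were also highest in Q808-1, with 8 of 8 detected and summed FPKM of 2700 to 7013 in Con., 3193 to 7086 in PTZ and 3449.8 to 13851 in Q808. The sum of the neuron markers was lowest there, with 7 of 7 detected and summed FPKM of 1717 to 2970.3 in Con., 1770.2 to 2994 in PTZ and 1378 to 2617 in Q808. Of the neuron markers, *Gad1*, *Gad2*, *Camk2a* and *Slc17a7* were each lower in another library. The part of these cell types in the result was not tested.

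The acute-phase genes were low, and *Serpina3n* was near the floor. *Serpina3n* (GeneID 24795), a serine protease inhibitor of a family with several close copies in rodents, was listed at 2.29, 0.0288 and 0 in Con., 0.0316, 0.338 and 0.0800 in PTZ and 0.0788 and 0 in Q808. Scaled by the relative depth of the libraries, which the steps between low values put between 0.854 and 1.19 of that of Con.-1, these values came to 67, 1, 0, 1, 11, 2, 2 and 0 steps of the Con.-2 value after rounding. Con.-1 therefore carried most of the signal of *Serpina3n*, and the groups overlapped. *Lcn2* (GeneID 170496), a secreted carrier of iron-binding siderophores, had FPKM of 1.77, 1.42 and 0.162 in Con., 0.669, 2.10 and 1.22 in PTZ and 0.742 and 0.387 in Q808. The highest *Lcn2* library was PTZ-2 and the lowest was Con.-3, and its PTZ against Con. value was 0.53 with all libraries and -0.37 without the 3, with limma unadjusted p = 0.527 and 0.502.

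In Q808 against PTZ, 0 of the 10 members were called in limma, 0 had an unadjusted p under 0.05, and 1.92% of all genes were called. The groups did not overlap in 1 member, *Timp1*, against 15.6% of all genes. *Timp1* was at 0.253 of the PTZ level, a log2 fold change of -1.98 with a 95% interval of -4.15 to 0.18 (limma, unadjusted p = 0.0666, adjusted p = 0.952, with 0.292 to 1.00 over the alternatives). *Osmr* was at 0.681 of the PTZ level, a log2 fold change of -0.55 with an interval of -1.63 to 0.52 (limma, unadjusted p = 0.258). Without the 3 libraries, *Timp1* (log2 -2.43, SE 0.84) and *Osmr* (log2 -1.14, SE 0.40) were lower and *Vim* (log2 1.16, SE 0.22) was higher in Q808-2 than in the PTZ libraries. In the same fit 6 of 7 meningeal fibroblast markers were called higher in Q808-2 (median log2 2.74), as were 6 of 6 choroid plexus markers (median log2 4.12) and 3 of 7 mural cell markers, and their part in the *Vim* result was not tested. The limma adjusted p of *Timp1*, *Osmr* and *Vim* were 0.292, 0.295 and 0.125 in that fit, in which 10.4% of all genes were called and 0.603% had an adjusted p under 0.05. Leaving out PTZ-3 gave calls for *Timp1* (log2 -2.78) and *Vim* (log2 0.98). Leaving out Q808-2 left 1 Q808 library and took all 3 groups in 1 fit, with log2 values of 0.72 for *S100b* and 1.22 for *Kcnj10*. Leaving out PTZ-2 moved *Timp1* to a log2 value of -1.12. Between Q808-1 and PTZ-3 alone *Timp1* was lower by a log2 value of -0.75 and *Osmr* higher by 0.26. The median over the 10 members was -0.06, beside 0.10 over all genes. Of all genes called, 212 were higher and 88 lower in Q808, and with quantile normalization 130 were higher and 142 lower.

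In Q808 against Con., 3 of the 10 members were called, all higher, and the same 3 did not overlap between the groups, against 3.46% of all genes called and 20.0% not overlapping. Of all genes called, 479 were higher and 61 lower, and with quantile normalization 283 were higher and 158 lower. *Vim* was 1.69-fold higher (log2 0.75, SE 0.21, limma unadjusted p = 0.0135), *Osmr* 2.27-fold (log2 1.18, SE 0.38, unadjusted p = 0.0221) and *Timp1* 2.44-fold (log2 1.29, SE 0.46, unadjusted p = 0.0336). The limma adjusted p of each was 0.901, and over the alternatives it ran from 0.513 to 1.00, from 0.330 to 1.00 and from 0.549 to 1.00 in that order. *Timp1* lost its call without Con.-2 (log2 1.02) or Con.-3 (log2 1.18), and *Osmr* without Con.-2 (log2 1.08). Fits without Q808-1 or Q808-2 left 1 Q808 library and took all 3 groups in 1 fit. That change alone, with all libraries kept, removed the calls of *Vim* and *Timp1*. Without Q808-1 the log2 values were 0.92 for *Vim*, 1.64 for *Timp1* and 0.82 for *Osmr*. Without Q808-2 they were 0.58, 0.93 and 1.55 in that order. In the same fit *Gfap* was at 0.72, *S100b* at 0.90, *Aqp4* at 0.71 and *Kcnj10* at 1.35. Without the 3 libraries *Vim* stayed called, *Osmr* (log2 0.85, limma unadjusted p = 0.0806) and *Timp1* (log2 1.54, unadjusted p = 0.120) did not, and *Lcn2* was called lower (log2 -1.79, unadjusted p = 0.0335), against 4.53% of all genes. Mural cell markers moved with *Vim*, with 7 of 7 detected, 3 of 7 called higher and summed FPKM of 69.6 to 82.9 in Con., 59.8 to 158 in PTZ and 132 to 164 in Q808. Endothelial markers had 8 of 8 detected and 3 of 8 called higher with all libraries. Their summed FPKM was 96.4 to 99.5 in Con., 79.6 to 179 in PTZ, 207 in Q808-1 and 113 in Q808-2. Meningeal fibroblast markers had 8 of 8 detected, 0 of 7 tested called and summed FPKM of 6.62 to 32.4, 20.1 to 30.8 and 16.5 to 82.1, highest in Q808-2. In the fit without the 3 libraries, the median log2 value in Q808 against Con. was 1.46 for meningeal and 1.65 for choroid plexus markers. It was 0.38 for mural cell and 0.23 for endothelial markers, beside 0.05 over all genes. The part of these cell types in the *Vim* result was not tested. The 3 comparisons share their libraries, so their values are set side by side and not compared with each other.

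**Figure D3:**
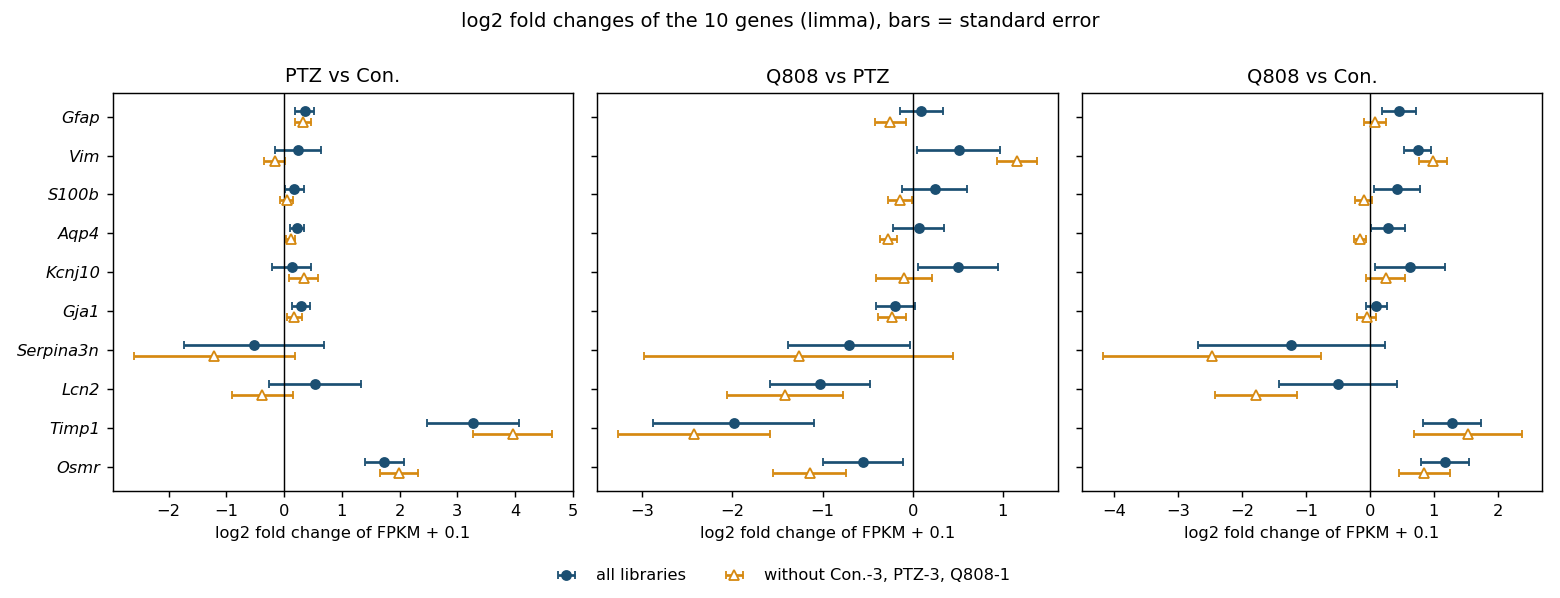
Fitted log2 fold change of FPKM + 0.1 (horizontal axis) for the 10 genes in the 3 comparisons, with standard errors as bars, filled circles for all libraries and open triangles for the fit without Con.-3, PTZ-3 and Q808-1. *Timp1* and *Osmr* lay above 0 in PTZ against Con. in both fits (3.27 and 1.74 with all libraries), while *Gfap*, *S100b*, *Aqp4* and *Kcnj10* crossed from above to below 0 in Q808 against PTZ.

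Around the receptor *Osmr*, 20 genes of oncostatin M and gp130 signalling were listed, and 4 of them were called higher in PTZ against Con. and 0 lower, against 2.53% of all genes called. *Socs3*, the feedback inhibitor that STAT3 induces, had FPKM of 0.359, 0.534 and 0.390 in Con., 4.69, 6.46 and 1.03 in PTZ and 1.15 and 0.904 in Q808. All PTZ and Q808 libraries lay above all Con. libraries, and PTZ-1 and PTZ-2 lay far above the rest. *Socs3* was 6.30-fold higher in PTZ than in Con. (log2 2.66, SE 0.64, limma unadjusted p = 0.00436, adjusted p = 0.999). *Stat3* itself had FPKM of 9.63, 11.9 and 13.5 in Con., 19.7, 27.4 and 14.9 in PTZ and 16.1 and 14.9 in Q808, and was 1.72-fold higher in PTZ (log2 0.79, unadjusted p = 0.0154). *Bcl3*, a nuclear IkB family protein, was 3.06-fold higher (log2 1.62, unadjusted p = 0.00750). The cytokine gene *Lif* was 2.13-fold higher (log2 1.09, unadjusted p = 0.0434) at levels of at most 0.382 FPKM. Abundant genes of the list did not pass, with a log2 value of 0.25 for *Cntfr*, a receptor of ciliary neurotrophic factor, and of -0.04 for the kinase *Jak1*. The median of the 20 genes was 0.03, beside -0.04 over all genes.

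Without the 3 libraries, where 9.82% of all genes were called, 5 genes of that list were higher in PTZ than in Con., among them *Socs3* (10.4-fold, limma adjusted p = 0.0207), *Bcl3* (4.45-fold, adjusted p = 0.0690), *Stat3* (2.16-fold, adjusted p = 0.0833) and *Lif* (2.35-fold, adjusted p = 0.205). In Q808 against PTZ 0 of the 20 were called with all libraries and 0 had an unadjusted p under 0.05 in limma. Without the 3 libraries Q808-2 was the lone Q808 library, and *Socs3* there was at 0.179 of the PTZ level. The median log2 value of the list in that fit was 0.04, beside 0.16 over all genes. Between the libraries with high striatum markers, *Socs3* was at 1.15 FPKM in Q808-1 and 1.03 in PTZ-3. In Q808 against Con. *Socs3* was the 1 gene called, 2.14-fold higher (log2 1.10, limma unadjusted p = 0.0180), against 3.46% of all genes.

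**Figure D4:**
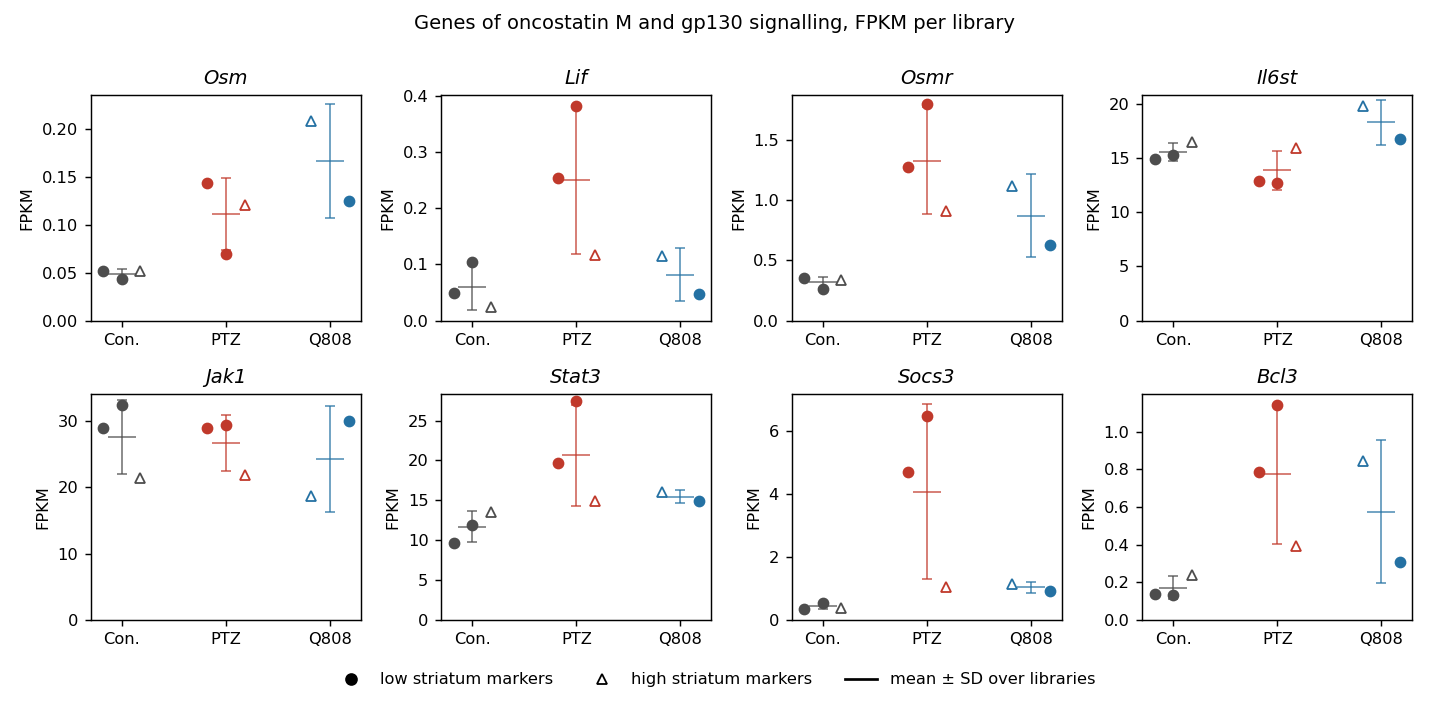
FPKM (linear axes from 0) of 8 genes of oncostatin M and gp130 signalling in each library, with the groups, symbols and bars (mean ± SD over libraries) of the plot of the 10 genes. *Socs3*, *Stat3*, *Bcl3* and *Lif* were higher in every PTZ library than in any Con. library, and *Il6st* and *Jak1* were not. *Osm* was too, at 0.144 FPKM or less in these groups. Over all genes, 9.15% did not overlap between PTZ and Con. in either direction. The open triangle of PTZ-3 was the lowest PTZ value of *Socs3*, *Stat3*, *Bcl3* and *Lif*.

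Other astrocyte genes gave few calls. Of 20 further astrocyte genes, 0 were called in PTZ against Con. by limma and 1 had an unadjusted p under 0.05, with a median log2 fold change of 0.13, and *Cst3*, *Apoe* and *Glul*, which encode cystatin C, apolipoprotein E and glutamine synthetase, had values of 0.17, 0.12 and 0.30. In Q808 against PTZ 0 of the 20 were called and 0 had an unadjusted p under 0.05 (0.46, 0.21 and 0.13 for the same genes), and in Q808 against Con. *Sox9*, a transcription factor of the glial lineage, was called lower (log2 -0.67, unadjusted p = 0.0389). Of 29 further reactive astrocyte genes, 28 passed the filter and 2 were called higher in PTZ against Con. None of the 28 was called in Q808 against PTZ, with 0 at an unadjusted p under 0.05. The 2 genes were *Emp1*, a membrane protein (2.21-fold, log2 1.15, limma unadjusted p = 0.00307), and *Hspb1*, a small heat shock protein (1.63-fold, log2 0.70, unadjusted p = 0.0193). *Ptgs2*, cyclooxygenase 2, which neurons also express after seizures, had FPKM of 13.7, 14.8 and 6.32 in Con., 82.8, 114 and 6.80 in PTZ and 4.46 and 11.3 in Q808, so PTZ-3 stood with the Con. libraries and the gene was not called with all libraries. The abundant *Chi3l1* and *S100a10* had values of 0.13 and 0.18 in PTZ against Con. In Q808 against Con. 7 of the 28 were called higher, *Emp1* (log2 1.37), *S100a6* (1.29), *Sphk1* (1.15), *Cp* (1.00), *Srgn* (0.96), *Hspb1* (0.80) and *Tm4sf1* (0.59), beside the vessel markers given above. Over all genes, 2.53% were called in PTZ against Con., 1.92% in Q808 against PTZ and 3.46% in Q808 against Con. The calls of the last comparison were 479 higher and 61 lower.

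Among genes related to the members, 2 of 5 intermediate filament genes were called higher in PTZ against Con. These were the lamin gene *Lmna* (1.55-fold, log2 0.63, limma unadjusted p = 0.00504) and the muscle filament gene *Des* (1.88-fold, log2 0.91, limma unadjusted p = 0.0470). *Plec* (log2 -0.10) and *Synm* (log2 -0.22) were not called. *Des* was also called in Q808 against Con. (log2 1.03). Its highest value was 3.60 FPKM in PTZ-3, the PTZ library with the highest mural cell marker sum (158). The part of mural cells in the *Des* result was not tested. None of the 6 genes that anchor aquaporin-4 at end-feet was called in any comparison by limma and 0 had an unadjusted p under 0.05, with *Dag1* and *Dtna* between -0.08 and 0.11 on the log2 scale. Of 7 other connexin genes, 0 were called by limma and 0 had an unadjusted p under 0.05 in PTZ against Con. or in Q808 against PTZ, and *Gja4* (log2 1.27) and *Gja5* (log2 1.08), both of vessel walls, were called higher in Q808 against Con., while *Gjb6* and *Gjc3* were not called. Of 3 receptors for lipocalin-2, *Lrp2* was called lower in PTZ against Con. (log2 -0.95, limma unadjusted p = 0.0271), and *Slc22a17* (log2 -0.03) and *Mc4r* (log2 -0.51) were not called. Over all genes, 2.53% were called in PTZ against Con., 1.92% in Q808 against PTZ and 3.46% in Q808 against Con. The all-gene calls in Q808 against Con. were 479 higher and 61 lower.

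Of the 10 TIMPs and their metalloproteinases other than *Timp1*, 9 passed the filter, and 0 were called in PTZ against Con. by limma, with 1 at an unadjusted p under 0.05. The most abundant of them, *Timp2*, *Cd63* (a cell surface partner of TIMP1) and *Timp3*, had log2 values of 0.21, 0.15 and 0.47 there. In Q808 against PTZ 3 were called higher, the opposite direction to that of the *Timp1* value, namely *Mmp2* (2.47-fold, log2 1.30, limma unadjusted p = 0.0261), *Mmp14*, which activates *Mmp2* protein (2.17-fold, log2 1.12, unadjusted p = 0.0277), and *Timp4* (1.93-fold, log2 0.95, unadjusted p = 0.0333). *Mmp2* had FPKM of 2.35, 1.35 and 2.76 in PTZ and 3.67 and 7.48 in Q808, highest in Q808-2, the library that was also highest in meningeal and choroid plexus markers, whose part in the result was not tested. In Q808 against Con. *Timp3* (log2 0.89, limma unadjusted p = 0.00546) and *Cd63* (log2 0.64, unadjusted p = 0.0169) were called higher. Over all genes, 1.92% were called in Q808 against PTZ and 3.46% in Q808 against Con.

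The genes whose pattern over the 8 libraries was most like that of *Osmr*, by Pearson correlation of log2(FPKM + 0.1) among 12563 genes whose mean FPKM reached 1, were *Egln2* (r = 0.970), *Lmna* (r = 0.970) and *Efhd2* (r = 0.969). *Efhd2* had FPKM of 71.1, 73.5 and 66.6 in Con., 107, 115 and 98.3 in PTZ and 96.0 and 83.3 in Q808. For *Gfap* they were *Edem1* (r = 0.960), *Tmem88* (r = 0.958) and *Hmox1* (r = 0.951). These are descriptions over 8 libraries that share groups and tissue composition.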

How the data were processed

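Hippocampal RNA sequencing libraries of 8 rats were analysed. Reads were trimmed with Trimmomatic, and the authors deposited FPKM values per gene, computed with Cufflinks and scaled to mapped fragments, beside product, GO and KEGG annotation that was not used. Per the study's methods, reads were also counted with HTSeq and tested with DESeq, and those counts were not analysed here. HISAT2, Bowtie2, StringTie and SAMtools are named in the submitters' processing notes without a role, and the genome build was not given in the sources used here. Absolute depth cannot be read from FPKM, so precision rests on the spread between libraries. P-values measure the spread between these rats.

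The 15593 of 22601 genes whose FPKM averaged 0.1 or more in the 8 libraries were fitted as log2(FPKM + 0.1), each comparison on its own 2 groups, by limma 3.58.1 in R 4.3.3 with empirical Bayes and a trend, and p-values were adjusted by Benjamini-Hochberg over all genes tested. Fits without the 3 libraries, with the striatum covariate or without a Q808 library took all 3 groups in 1 fit instead. Calls required more than 1.5-fold change and an unadjusted p under 0.05. The study's methods test counts, which FPKM does not allow. Fold changes on this scale understate the change of low genes. For single values a two-sided exact permutation test over libraries was run. Tables and figures were made in Python 3.11.15 (matplotlib 3.10.9, scipy 1.17.1, pandas 2.3.3, numpy 2.4.6), and the fit was tested on simulated data.

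Gene symbols came from the RefSeq table of GRCr8 for 20633 genes. The named genes were the 10 members, the called genes and the 3 most abundant genes of each related list, and the 3 genes most like *Osmr* and *Gfap*. *Osm* and *Il6st*, the ligand and the shared receptor chain, were added to a plot outside this rule, and some genes that the rule names are not reported here. The members and lists were chosen with earlier results of these data known, and so was the division by striatum markers. Same-numbered PTZ and Con. libraries deviated together from their group means (correlations 0.309, 0.392 and 0.472). The replicate number was used as a pairing only in an alternative, the replicate block, which was run in all 3 comparisons. This rests on the correlations, since the labels do not say what a number shares. There is no Q808-3, so in the comparisons with Q808 the block took PTZ-3 or Con.-3 out of the log2 value. Unlike-numbered PTZ and Con. libraries ran from -0.523 to 0.452, with Con.-2 and PTZ-1 above 2 of the 3 same-numbered values. For Q808 the shared numbers gave -0.463 and 0.661 with Con. and -0.439 and 0.416 with PTZ. Q808-1 correlated at 0.689 with Con.-3 and 0.533 with PTZ-3, the unlike-numbered libraries that also have high striatum markers. A pairing by number therefore cannot be told apart from shared tissue composition. Alternatives were pseudocounts of 1 and 0.01, no filter, a filter at a mean FPKM of 1, median ratio scaling, quantile normalization, no trend, all 3 groups in 1 fit, the replicate block, the striatum marker mean as a covariate, the 3 libraries left out, and each library left out in turn.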

Additional observations from a re-analysis of the deposited data

How the results depend on the processing

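In PTZ against Con. *Timp1* and *Osmr* kept their direction and their call under every alternative that gave a value, with log2 fold changes from 2.40 to 4.06 and from 0.80 to 2.00. With a mean FPKM of at least 1, *Osmr* and *Serpina3n* were below the filter and 1 member was called. In Q808 against PTZ, where 0 members were called, 1 was called with all 3 groups in 1 fit, 1 with the striatum covariate, 3 without the 3 libraries, 2 with the replicate block and 0 to 2 with each library left out, 2 without PTZ-3 and 2 without Q808-2. In Q808 against Con., where 3 were called, 1 was called with all 3 groups in 1 fit and 0 to 5 with a library left out, 0 without Q808-1 and 5 without Q808-2. There *Vim* lost its call with all 3 groups in 1 fit (log2 0.75) and with the covariate (0.74), *Timp1* with no filter (1.29), with all 3 groups in 1 fit (1.29), with the replicate block (1.18), with the covariate (1.31) and without the 3 libraries (1.54), and *Osmr* with a pseudocount of 1 (0.50) and without the 3 libraries (0.85). Leaving out single libraries gave log2 values of 0.58 to 0.92 for *Vim*, 0.93 to 1.65 for *Timp1* and 0.82 to 1.55 for *Osmr*. The replicate block changed no member's call in PTZ against Con. In Q808 against PTZ it gave the same log2 values as the fit without PTZ-3. In Q808 against Con. its log2 values were those of the fit without Con.-3, so these alternatives are not separate. Over all genes, calls ran from 219 (pseudocount 1) to 1532 (without the 3 libraries) in PTZ against Con., beside 395, from 132 (without PTZ-1) to 1894 (replicate block) in Q808 against PTZ, beside 300, and from 279 (without Con.-2) to 1683 (without Q808-2) in Q808 against Con., beside 540.

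Directions that turned without the 3 libraries were those of *Vim* (-0.16) and *Lcn2* (-0.37) in PTZ against Con., of *Gfap* (-0.25), *S100b* (-0.14), *Aqp4* (-0.27) and *Kcnj10* (-0.094) in Q808 against PTZ, and of *S100b* (-0.097), *Aqp4* (-0.16) and *Gja1* (-0.052) in Q808 against Con. *Aqp4* in Q808 against PTZ was -0.027 with median ratio scaling, and *Serpina3n* in PTZ against Con. was 0.18 with a pseudocount of 0.01. With single libraries left out, the PTZ against Con. values ran from -0.23 to 0.55 for *Vim*, -0.17 to 0.47 for *Kcnj10*, -1.35 to 0.94 for *Serpina3n* and -0.37 to 1.05 for *Lcn2*. The Q808 against PTZ values ran from -0.17 to 0.37 for *Gfap*, -0.23 to 0.72 for *S100b*, -0.36 to 0.49 for *Aqp4* and -0.22 to 1.22 for *Kcnj10*. The Q808 against Con. values ran from -0.058 to 0.90 for *S100b*, -0.14 to 0.71 for *Aqp4*, -0.090 to 1.35 for *Kcnj10*, -0.040 to 0.24 for *Gja1*, -2.05 to 0.24 for *Serpina3n* and -1.40 to 0.020 for *Lcn2*. None of these turned values was called with all libraries, and the cause was not tested. Of 484 alternative values in all, 423 kept direction and side of the threshold, 25 turned direction, 19 passed the threshold anew and 17 fell below it. The filter, trend and all-groups alternatives cannot change a log2 value, nor can the replicate block in PTZ against Con. For those alternatives the kept direction was fixed in advance, and only the call could change. With 2 or 3 libraries per group, no exact permutation test could go below 0.1.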
